A study of Mus musculus with 6 samples.

Results

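The microRNAs described here are miR-99a, miR-99b, miR-100, miR-125a and miR-125b of the mouse, taken by name with any arm or copy number. The deposited table held 9 such microRNAs among 695. Of these, 5 are the 5′ arms, called guides here (mmu-miR-99a, mmu-miR-99b, mmu-miR-100, mmu-miR-125a-5p and mmu-miR-125b-5p, written without the species prefix from here on). The other 4 are the opposite 3′ arms (miR-99b*, miR-125a-3p, miR-125b-1-3p and miR-125b-2-3p). They were measured on microarrays of 1 colour in 3 liver tumours and in 3 pieces of normal-looking liver, each cut from beside 1 of the tumours. All tissue came from C57BL/6J mice at 6 months of age that had received 3E10 particles of the adeno-associated virus vector AAV-Rian-CMV by vein on the day after birth, so that the adjacent liver had met the vector as well and no uninjected liver was compared. The labels tie the arrays into the pairs 1293, 1309 and 1316, do not say that the pairs came from separate animals, and call the third tumour 1316 in its title but 1306 in its source. Should tumours share an animal, the p-values would cover less than the variation from animal to animal.

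MicroRNAs are short RNAs that guide Argonaute proteins to messenger RNAs, mostly through the seed, bases 2 to 8 from the 5′ end, and lower the output of their targets. The miR-99 family, to which miR-100 belongs, is known in human cells to target MTOR and IGF1R, which drive growth and protein synthesis. The miR-125 family is the vertebrate counterpart of lin-4, a developmental timing microRNA of Caenorhabditis elegans, and is known to target Lin28, which blocks the maturation of let-7. Genomes of vertebrates carry these families in clusters of 3 hairpins, with a miR-99 or miR-100 first, a let-7 next and a miR-125 last.

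All 9 members had a mature entry in RefSeq (GRCm38.p6), and the sequences are shown because the paralogs differ so little that an array may not part them. Capitals mark the seed. The 3 members of the miR-99 family share the seed ACCCGUA, and the 2 guides of the miR-125 family share CCCUGAG.
miR-99a: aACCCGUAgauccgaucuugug
miR-100: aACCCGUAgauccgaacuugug
miR-99b: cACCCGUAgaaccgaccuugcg
miR-125b-5p: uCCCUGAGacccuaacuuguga
miR-125a-5p: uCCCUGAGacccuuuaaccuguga
Counted from 1 at the 5′ end, miR-99a and miR-100 differed by the single substitution U16A, with the base of miR-99a first. miR-99a and miR-99b differed by A1C, U11A, U16C and U21C, all outside the seed. miR-125b-5p and miR-125a-5p were identical over their first 13 bases. How far a probe for miR-99a reads miR-100, or the reverse, is not given in the sources used here, so the split of signal between them is uncertain.

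The opposite arms carry other seeds, none of them shared within the set, and are shown because they are the rows that could tell apart the 2 copies of miR-125b.
miR-99b*: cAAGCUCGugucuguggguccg
miR-125a-3p: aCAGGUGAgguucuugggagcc
miR-125b-1-3p: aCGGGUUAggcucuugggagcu
miR-125b-2-3p: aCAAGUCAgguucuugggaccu
The 3 clusters lie on the plus strand of chromosomes 16, 9 and 17 in GRCm38.p6. On chromosome 16, miR-99a is encoded at chr16:77598940-77598961, followed by let-7c-1 and by 1 copy of miR-125b-5p at chr16:77646279-77646300. On chromosome 9, miR-100 lies at chr9:41531437-41531458, followed by let-7a-2 and the other copy of miR-125b-5p at chr9:41581940-41581961, all within the long non-coding RNA gene Mir100hg. On chromosome 17, miR-99b lies at chr17:17830194-17830215, followed by let-7e and by miR-125a-5p at chr17:17830817-17830840, all within the protein-coding gene Spaca6. Between their outermost listed bases the clusters span 47404, 50578 and 686 bases, and no other annotated microRNA hairpin lies inside them. The row of miR-125b-5p reads both of its copies together.

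Over the whole table, array medians lay between 6.39 and 6.44, so that rows near 6.4 may hold background, and the defining hepatocyte microRNA, miR-122, was bright in both tissues, at 14.80 ± 0.04 (SD, n = 3) in adjacent liver and 14.69 ± 0.23 in tumours. Tumours varied more than adjacent pieces, with a median SD of 0.141 against 0.0494. Tumour 1293 stood furthest from the mean of the adjacent pieces: 71 rows lay more than 1 from it on the log2 scale, against 27 in tumour 1316 and 17 in tumour 1309. The microRNAs of the targeted gene, miR-341, miR-370 and miR-1188, had log2 differences of 0.23, 0.26 and 0.04 between tumour and adjacent liver, with limma adjusted p-values of 0.28, 0.36 and 0.68. Their adjacent means, 6.235, 6.307 and 6.175, lay below the array medians, so these rows may hold background and say little on the targeted gene. miR-341 was higher in each tumour than in any adjacent piece, as were 8.63% of all microRNAs.

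The first question was whether the miR-99 family differed between tumour and adjacent liver. miR-99a and miR-100 were lower in each tumour than in any adjacent piece, by about 2.01-fold and 1.35-fold in their means, while miR-99b differed by 1.07-fold. None of the 3 passed the test over all 695 microRNAs. miR-99a had values of 8.37, 8.33 and 8.27 in the adjacent pieces of pairs 1293, 1309 and 1316, and of 7.08, 7.83 and 7.04 in their tumours. The adjacent values were nearly level, tumours 1293 and 1316 were well below them, and tumour 1309 lay about midway. The log2 difference, tumour minus adjacent, was -1.0 ± 0.21 (SE, n = 3 per group; 95% interval -1.53 to -0.48; limma adjusted p = 0.089). miR-100 had values of 7.52, 7.47 and 7.42 in adjacent liver and of 7.10, 7.18 and 6.84 in tumours, in the same order of pairs. The groups did not overlap, and tumour 1316 was the lowest. The log2 difference of miR-100 was -0.43 ± 0.10 (SE, n = 3 per group; 95% interval -0.67 to -0.19; limma adjusted p = 0.093).

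miR-99b, which has the same seed, had values of 6.75, 6.82 and 6.76 in adjacent liver and of 6.59, 6.74 and 6.71 in tumours. All 3 tumours were below all 3 adjacent pieces, by a narrow margin, and the values lay close to the array medians. Its log2 difference was -0.10 ± 0.06 (SE, n = 3 per group; limma adjusted p = 0.51), with a 95% interval of -0.25 to 0.06. That interval contains 0 and leaves out the estimates of miR-99a and miR-100.

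The second question was the same for the miR-125 family. miR-125b-5p was lower in each tumour than in any adjacent piece, by 1.74-fold in its mean, whereas miR-125a-5p was higher than adjacent liver in tumour 1293 and lower in the other tumours. miR-125b-5p had values of 8.50, 8.52 and 8.49 in the adjacent pieces of pairs 1293, 1309 and 1316, and of 7.64, 8.08 and 7.38 in their tumours. As for miR-99a, the adjacent values were level and tumour 1309 was the nearest to them. The log2 difference was -0.80 ± 0.17 (SE, n = 3 per group; 95% interval -1.22 to -0.37; limma adjusted p = 0.093). miR-125a-5p had values of 7.51, 7.48 and 7.53 in adjacent liver and of 7.85, 7.26 and 7.17 in tumours. The groups overlapped through tumour 1293 alone. The log2 difference of miR-125a-5p was -0.08 ± 0.18 (SE, n = 3 per group; 95% interval -0.52 to 0.36; limma adjusted p = 0.85), and without tumour 1293 it was -0.29 (limma adjusted p = 0.0095).

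**Figure D1:**
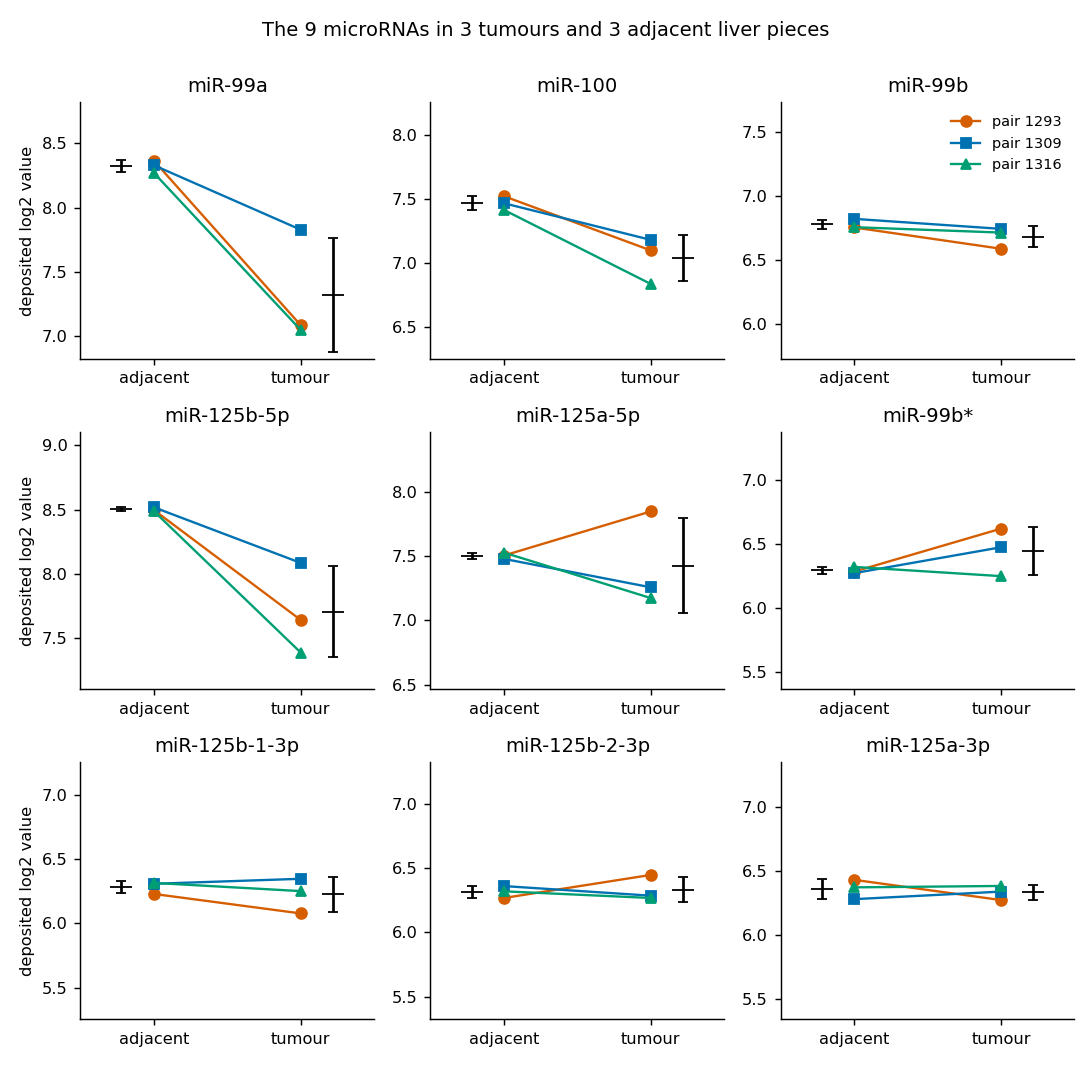
Deposited log2 values (vertical axes, each spanning 2 log2 units) of the 9 microRNAs in adjacent liver and tumour. Coloured points joined by lines are the pairs 1293, 1309 and 1316, and black bars beside them are mean ± SD of 3 arrays. For miR-99a, miR-100 and miR-125b-5p all lines run downwards to the tumour, and for miR-125a-5p the line of pair 1293 runs upwards. The 3′ arms have group means of 6.23 to 6.45, and miR-99b* is at 6.62 in tumour 1293.

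The 3′ arms gave little signal in either tissue. Group means lay between 6.23 and 6.45, around the array medians, and the tumours overlapped the adjacent pieces for each of the 4. miR-99b* had values of 6.28, 6.27 and 6.32 in adjacent liver and of 6.62, 6.47 and 6.25 in tumours. It was higher in tumours 1293 and 1309 and lower in tumour 1316, with a log2 difference of 0.15 ± 0.10 (SE, n = 3 per group; limma adjusted p = 0.50). The differences of miR-125a-3p, miR-125b-1-3p and miR-125b-2-3p were -0.03, -0.06 and 0.02, with limma adjusted p-values of 0.84, 0.74 and 0.91. Because both 3′ arms of miR-125b were near the array medians, the share of either copy in the difference of miR-125b-5p could not be read from these arrays.

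Counted together, 0 of the 9 members passed an adjusted p of 0.05 in limma, where 20 of 695 microRNAs did (2.88%), 18 of them higher in tumours (2.59%) and 2 lower (0.288%). At an unadjusted p below 0.05, 3 members were lower (miR-99a, miR-100 and miR-125b-5p) and 0 higher, where 98 of all microRNAs were lower (14.1%) and 41 higher (5.9%). The tumours lay below all adjacent pieces for 4 members, which adds miR-99b, and for 159 microRNAs of the table (22.9%). They lay above all adjacent pieces for 0 members, and for 8.63% of all microRNAs. A lower mean in tumours was seen for 7 members and for 59.6% of all microRNAs. Such separation was commoner among the 347 microRNAs brighter than the median row, at 37.8%, and the 5 guides lie in that range. The median log2 difference was -0.08 over the 9 members and -0.03 over all microRNAs. It was -0.43 over the 5 guides, -0.006 over the 4 opposite arms and -0.10 over the 347 brighter microRNAs. Lower values in tumours were therefore no rarity in this table, and no test was made of whether the members stood apart from it.

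The calls turned on single arrays. Without tumour 1293, which stood furthest from the adjacent pieces, limma called 4 members lower, where 12.2% of all microRNAs were called lower: miR-99a (-0.89, adjusted p = 0.033), miR-100 (-0.46, adjusted p = 0.028), miR-125b-5p (-0.77, adjusted p = 0.037) and miR-125a-5p. The tumours then lay below all adjacent pieces for 5 members and for 31.4% of all microRNAs. Without tumour 1309, whose values were nearest to adjacent liver, it called 3, where 5.32% were called lower: miR-99a (-1.26, adjusted p = 8.0e-04), miR-100 (-0.50, adjusted p = 0.046) and miR-125b-5p (-0.99, adjusted p = 0.0048). With both arrays of pair 1293 left out it called 0 members, where 3.02% of all microRNAs were called lower, and the adjusted p was 0.13 for miR-99a, 0.12 for miR-100 and 0.13 for miR-125b-5p. Without tumour 1316, without pair 1316, or without any 1 of the adjacent pieces, it called 0 members. In each of these settings 0 of the 695 microRNAs were called lower. With both arrays of pair 1309 left out, miR-99a alone was called (-1.26, adjusted p = 0.024), where 0.863% were called lower. Weighting the arrays by their spread gave 4 calls (12.5% of all microRNAs called lower), the same 4 as without tumour 1293. Weights together with the replicate block gave 3 calls, of miR-99a, miR-100 and miR-125b-5p (5.04% of all microRNAs called lower). With the pair as a replicate block and equal weights, 0 members passed (1.73% of all microRNAs passed, 0 of them lower in tumours). The limma adjusted p was then 0.14, 0.15 and 0.14 for miR-99a, miR-100 and miR-125b-5p. Across all 17 alternatives, the difference of miR-99a stayed between -1.26 and -0.87, that of miR-125b-5p between -0.99 and -0.64, and that of miR-100 between -0.50 and -0.33.

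**Figure D2:**
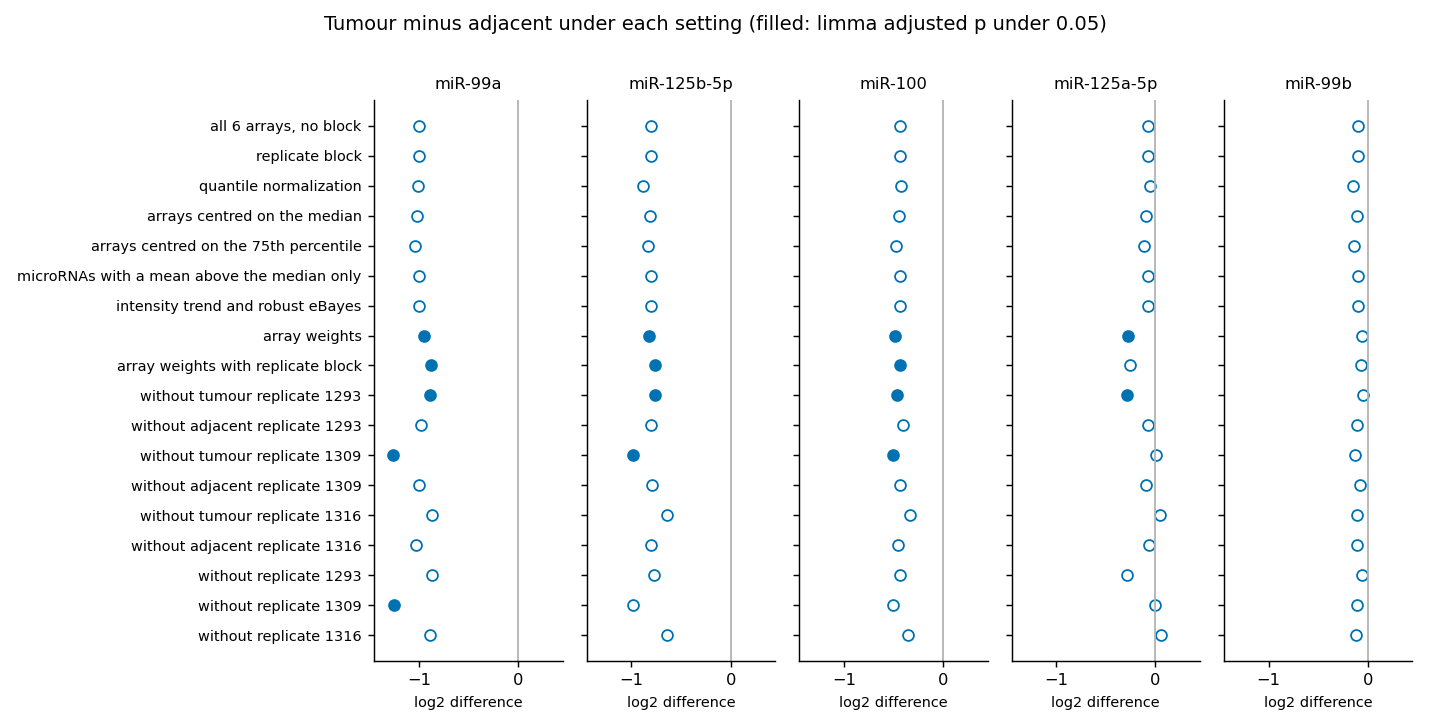
Log2 difference, tumour minus adjacent (horizontal axes), of the 5 guides under each setting of the analysis (rows). Filled points passed a limma adjusted p of 0.05 and open points did not. miR-99a, miR-125b-5p and miR-100 lie left of 0 in every row but are filled in only 5, 4 and 4 of the 18, miR-125a-5p crosses 0, and miR-99b is never filled.

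The third question was whether members of the same cluster, and paralogs of the same seed, differed alike. The let-7 partners, which are known to restrain Lin28, Ras and Hmga2, were all lower in each tumour than in any adjacent piece. The values of let-7c, the partner of miR-99a, were 10.59, 10.49 and 10.61 in adjacent liver and 9.87, 10.33 and 9.81 in tumours, a log2 difference of -0.57 ± 0.15 (SE, n = 3 per group; limma adjusted p = 0.11). let-7a, the partner of miR-100, averaged 11.25 ± 0.05 (SD, n = 3) and 10.85 ± 0.22, a difference of -0.40 ± 0.12 (SE; limma adjusted p = 0.13). The values of let-7e, the partner between miR-99b and miR-125a-5p, were 8.17, 8.13 and 8.36 in adjacent liver and 6.88, 7.78 and 7.64 in tumours of pairs 1293, 1309 and 1316. Tumour 1293 was the lowest for let-7e and the highest for miR-125a-5p. The log2 difference of let-7e was -0.79 ± 0.24 (SE, n = 3 per group; limma adjusted p = 0.14). With arrays left out, let-7e was called lower without tumour 1293 (-0.51, limma adjusted p = 0.0097), and let-7c without tumour 1309 (-0.73, adjusted p = 0.0053) or without pair 1309 (-0.77, adjusted p = 0.046). With array weights let-7a, let-7c and let-7e were all called lower (limma adjusted p = 0.017, 0.018 and 0.0089), and with weights and the block none of the 3 was. Quantile normalization of the deposited values took let-7a to -0.20 and let-7c to -0.36. The mature sequences of the partners are shown because they, too, differ by little: let-7a and let-7e by U9G, let-7a and let-7c by A19G, the base of let-7a first.
let-7c: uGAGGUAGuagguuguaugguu
let-7a: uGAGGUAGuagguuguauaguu
let-7e: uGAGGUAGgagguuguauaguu
let-7a and let-7c are each encoded by 2 hairpins, of which 1 lies in these clusters, so their rows also read copies elsewhere.

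**Figure D3:**
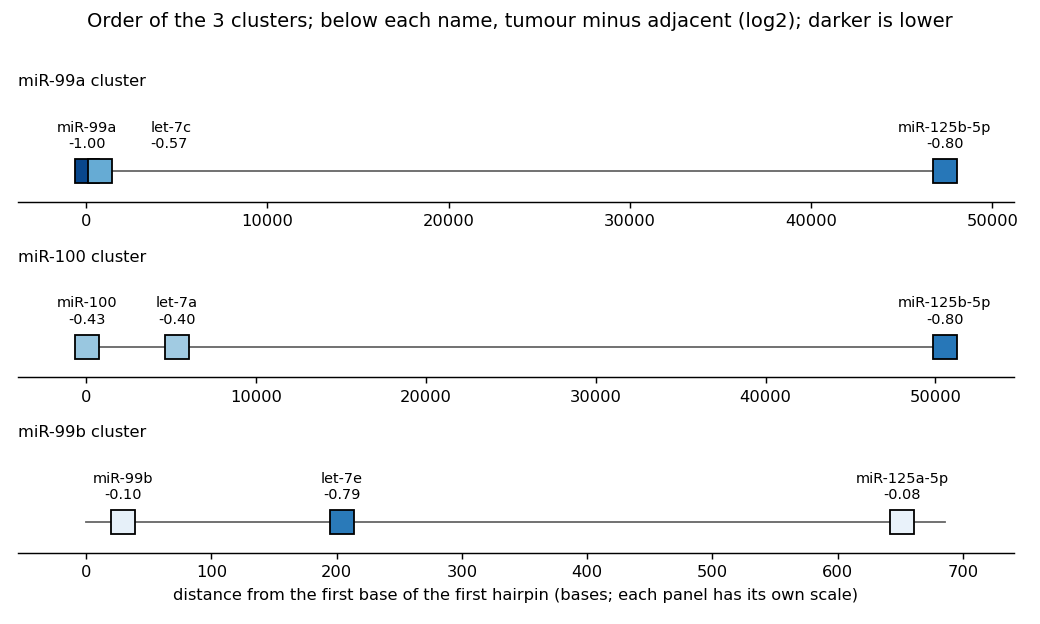
Order of the guides along the 3 clusters, by distance in bases from the first listed base (horizontal axes, a scale for each). Numbers below the names and the shade of the squares give the log2 difference, tumour minus adjacent, and the 1 row of miR-125b-5p is drawn in both of its clusters. In the cluster of miR-99b, let-7e stands at -0.79 between neighbours at -0.10 and -0.08, and without tumour 1293 these were -0.51, -0.05 and -0.29. The values of miR-99b lay close to the array medians.

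Unequal change was examined in 17 contrasts. Each takes the difference of 2 log2 values within an array and compares it between tumours and adjacent pieces by an exact permutation test, two-sided, in which 3 arrays against 3 cannot go below p = 0.10. The groups lay apart in 13 of the 17, each at exact p = 0.10 (0.13 after Benjamini-Hochberg adjustment over the 17), so none passed a threshold of 0.05. For single microRNAs, tumours lay below all adjacent pieces in 22.9% of the table and above them in 8.63%. The share for contrasts of other microRNAs was not worked out. The contrasts reuse the same microRNAs, miR-125b-5p above all, and are not independent of each other. Among paralogs, miR-99a was lower relative to miR-99b by 0.91 in tumours, with values of -1.12, -0.43 and -1.18 in pairs 1293, 1309 and 1316, or -0.91 ± 0.42 (SD, n = 3 pairs). Relative to miR-100, which differs from it by 1 base, miR-99a was lower in tumours by 0.57 ± 0.33 (SD, n = 3 pairs), and in each pair. miR-125a-5p was higher relative to miR-125b-5p by 0.72 ± 0.50 (SD, n = 3 pairs), at 1.20, 0.21 and 0.75, and by 0.48 without tumour 1293. All 4 contrasts between paralogs had the same sign in the 3 pairs, and pair 1309 gave the smallest value in each. miR-99b lay close to the array medians, so its contrasts with miR-99a and miR-100 may largely restate the differences of those microRNAs.

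Within the clusters, the contrasts ran from 0.02 to 0.71 in size. miR-100 and let-7a had a contrast of -0.03 ± 0.12 (SD, n = 3 pairs; exact permutation p = 0.70). After quantile normalization of the deposited values it was -0.22 with separate groups (exact permutation p = 0.10), and let-7a then stood at -0.20 and miR-100 at -0.42. miR-99a was lower relative to let-7c by 0.44 ± 0.11 (SD, n = 3 pairs) and relative to miR-125b-5p by 0.21 ± 0.19. The latter contrast was -0.12 without tumour 1293, and after quantile normalization it was -0.13 and its groups overlapped (exact permutation p = 0.30). In the cluster on chromosome 17, miR-99b was higher relative to let-7e by 0.69 ± 0.43 (SD, n = 3 pairs), and by 0.46 without tumour 1293. With miR-99b close to the array medians, this contrast may largely restate the difference of let-7e. let-7e was lower relative to miR-125a-5p by 0.71 ± 0.81 (SD, n = 3 pairs), of which pair 1293 gave -1.64 and the others -0.13 and -0.36. Without tumour 1293 that contrast was -0.22. miR-99b and miR-125a-5p had a contrast of -0.02 ± 0.43 (SD, n = 3 pairs; exact permutation p = 1.0), which turned to 0.24 without tumour 1293.

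Between arms of the same hairpin, miR-125b-5p was lower relative to miR-125b-1-3p by 0.74 ± 0.28 (SD, n = 3 pairs) and relative to miR-125b-2-3p by 0.82 ± 0.40. Since both 3′ arms were near the array medians, these contrasts restate the difference of the guide. The contrast was -0.25 ± 0.27 (SD, n = 3 pairs; exact permutation p = 0.20) for miR-99b against miR-99b* and -0.05 ± 0.48 (exact permutation p = 1.0) for miR-125a-5p against miR-125a-3p, and their groups overlapped. Without tumour 1293 these were -0.12 and -0.29.

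**Figure D4:**
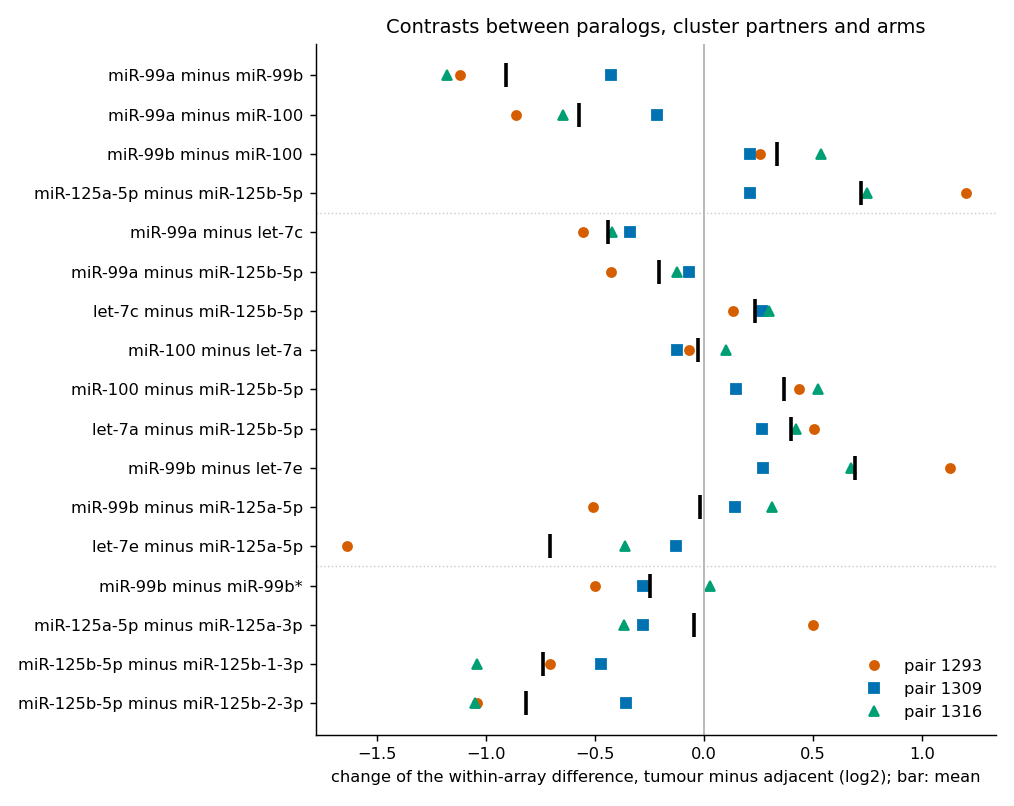
Change of the within-array difference between 2 microRNAs, tumour minus adjacent, on the log2 scale (horizontal axis) for 17 contrasts (rows). Coloured points are the pairs 1293, 1309 and 1316, and black bars are their means. All 4 contrasts between paralogs keep 1 side of 0, with miR-99a minus miR-99b at -1.12, -0.43 and -1.18. The values of miR-99b lay close to the array medians.

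The let-7 family as a whole had 9 guides, all with a lower mean in tumours and 8 with separate groups, a median of -0.37 on the log2 scale and 0 calls (6 lower at an unadjusted p below 0.05 in limma). Among microRNAs brighter than the median row, 62.5% had a lower mean and 37.8% had all tumours below all adjacent pieces. Over all microRNAs, 14.1% were lower at that unadjusted p. Of the 7 other arms of let-7 in the table, 6 had a higher mean in tumours, with a median of 0.25 and 0 calls. These values rested on tumour 1293: without it the median over the other arms was -0.04. Of these arms let-7a-1*, with values near the array medians, was then called lower (-0.17, limma adjusted p = 0.040), where 12.2% of all microRNAs were. let-7d* stood at 8.95 in tumour 1293 against at most 6.55 on the other arrays. The same tumour was high for miR-125a-5p and miR-99b*. Without it, their differences were -0.29 and 0.069. Why this tumour stood apart was not tested.

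miR-10a and miR-10b, which lie among the Hox genes, have mature sequences that resemble those of miR-99a and miR-100, with another seed, ACCCUGU.
miR-10a: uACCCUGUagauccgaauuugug
miR-10b: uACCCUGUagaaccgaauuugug
miR-10a averaged 8.05 ± 0.02 (SD, n = 3) in adjacent liver and 7.56 ± 0.26 in tumours, and its groups did not overlap. Its log2 difference was -0.49 ± 0.13 (SE, n = 3 per group; limma adjusted p = 0.12), close to that of miR-100. miR-10b had a difference of 0.12 ± 0.19 (SE, n = 3 per group; limma adjusted p = 0.76) and, like miR-125a-5p, was high in tumour 1293 alone, at 7.24 against 6.58 and 6.59 in the other tumours. The 3′ arms miR-10a* and miR-10b* had differences of -0.003 and -0.09, and 0 of these 4 relatives were called with all 6 arrays. miR-10a was called lower without tumour 1293 (-0.58, limma adjusted p = 0.016), with array weights (-0.61, adjusted p = 0.0049) and with weights and the replicate block (-0.57, adjusted p = 0.047).

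**Figure D5:**
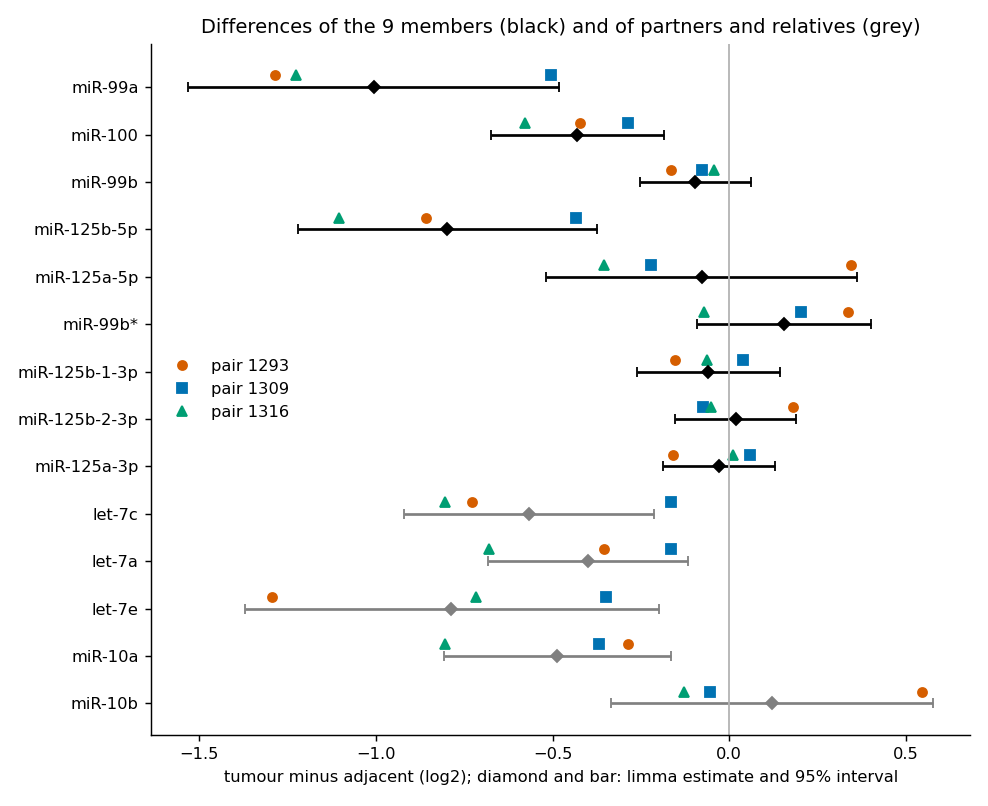
Log2 difference, tumour minus adjacent (horizontal axis), of the 9 members (black) and of let-7 partners and miR-10 relatives (grey). Diamonds and bars are limma estimates with 95% intervals, and coloured points the pairs 1293, 1309 and 1316. The intervals of miR-99a, miR-100 and miR-125b-5p end below 0, at -0.48, -0.19 and -0.37, before adjustment for the 695 microRNAs tested.

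Across the 6 arrays, Pearson's r describes how alike the guides' profiles were, with no test, since the points are 3 tumours and 3 adjacent pieces. miR-99a and miR-125b-5p had r = 0.988, miR-100 and miR-125b-5p 0.973, and miR-99a and miR-100 0.941. Over these arrays, miR-125a-5p had r = 0.14 to miR-125b-5p and -0.53 to its cluster partner miR-99b. Both values include tumour 1293, the only tumour in which miR-125a-5p was above adjacent liver (7.85, against 7.26 and 7.17 in tumours 1309 and 1316). Without that array r was not worked out, so a separate profile of miR-125a-5p cannot be read from these values. Among the 342 other microRNAs brighter than the median row, those most like miR-99a were miR-30b (r = 0.998), miR-455 (0.996) and miR-31 (0.993). Those most like miR-125b-5p were miR-455 (0.993), let-7f (0.984) and let-7b (0.983), and those most like miR-100 were let-7b (0.986), its own cluster partner let-7a (0.976) and miR-31* (0.974). miR-99b was most like miR-291b-5p (0.986), miR-126-5p (0.976) and miR-2134_v15.0 (0.975), and miR-125a-5p most like miR-331-3p (0.978), miR-350 (0.978) and miR-149 (0.966). None of these 13 microRNAs passed limma's test, and r here rests on both the step between groups and the order of the tumours.

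Beside miR-99a, miR-100 and miR-125b-5p, markers of several liver cell types also had lower means in tumours, as did 59.6% of all microRNAs. In bulk tissue, fewer cells of a type and less RNA per cell cannot be told apart. Of 6 stromal microRNAs, 5 had a lower mean in tumours and 0 were called. Their mean log2 level was 6.61 to 6.95 in tumours and 7.20 to 7.27 in adjacent liver. miR-199a-3p, a marker of stellate cells and fibroblasts, had the largest difference of the 6, at -0.85 ± 0.18 (SE, n = 3 per group; limma adjusted p = 0.089). Its other arm, miR-199a-5p, was at -0.21 with overlapping groups (limma adjusted p = 0.30). miR-145 was higher, at 0.07, and its groups overlapped (limma adjusted p = 0.79). Of 8 hepatocyte microRNAs, 7 had a lower mean, 0 were called, and the mean level was 9.11 to 9.70 in tumours and 9.84 to 9.89 in adjacent liver. The remaining one, miR-193b, was higher in each tumour than in any adjacent piece, at 0.50 (limma adjusted p = 0.11). miR-122 was at -0.11 with overlapping groups. Of 6 microRNAs of bile duct epithelium, all had a lower mean and 2 were called lower (miR-200a and miR-200b), with a mean level of 6.39 to 6.70 in tumours and 6.95 to 7.04 in adjacent liver. The endothelial list (2 of 2 with a lower mean, 0 called) had mean levels of 8.28 to 8.64 in tumours and 8.67 to 8.73 in adjacent liver. The leukocyte list (4 of 6 lower, 0 called; 6.79 to 7.29 against 7.22 to 7.41) and the erythroid list (2 of 2 lower, 0 called; 7.75 to 8.47 against 8.14 to 8.80) overlapped between the groups. No marker was at 0, a value that the scale does not reach. Without tumour 1293, the median log2 difference moved from -0.525 to -0.319 (stromal), -0.697 to -0.488 (hepatocyte) and -0.293 to -0.0649 (leukocyte). It moved from -0.253 to -0.17 (endothelial), -0.308 to -0.125 (erythroid) and, the other way, from -0.483 to -0.549 (bile duct). The part of these cell types in the values of the members was not tested.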

How the data were processed

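Per the submitters' processing notes, the authors made the deposited log2 values with RMA, which corrects background, equalises the distributions of the arrays and combines the probes of a microRNA, and they also name limma. No version is given. The notes do not state the log base, and 2 was assumed. Per the labels' protocols, total RNA was labelled with cyanine 3-pCp for Agilent arrays. The table held 695 rows with 0 missing values, and 0 of its columns belonged to another series. With only these summarised values, presence or absence could not be called. The number of arrays limits the precision. No 2 arrays were identical.

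Every row was fitted with limma 3.58.1 in R 4.3.3 (lmFit, eBayes, two-sided, Benjamini-Hochberg over all 695, threshold 0.05), tumour against adjacent without a block. The fit was tested on simulated data with the same spread in both groups. Tumours here varied more than adjacent pieces, so that test does not cover their unequal spread. The pair numbers come from the labels. As a check of the pairing, deviations of the 2 arrays of a pair from their group means had correlations of -0.05 (1293), 0.07 (1309) and -0.003 (1316). Alternatives were the replicate block, quantile normalization, centring, a filter at the median row mean, a trend with robust eBayes, array weights, and leaving out each array or pair. The members, lists and tests were chosen with earlier results of these data known. Named were all members, the let-7 partners, the miR-10 relatives and, for each guide, the 3 microRNAs with the highest Pearson r. Others served as controls or markers, and let-7d* was named after its values were seen. Plots were made with matplotlib 3.10.9 (Python 3.11.15).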

Additional observations from a re-analysis of the deposited data

How the results depend on the processing

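Over all 695 microRNAs, limma called 20 (18 higher, 2 lower). The count was 12 (0 lower) with the replicate block, 138 with array weights (51 higher, 87 lower) and 73 with weights and the block (38 higher, 35 lower), and 0 were called lower with an intensity trend. Leaving out an array or a pair gave 9 to 136 calls (8 to 51 higher, 0 to 85 lower). Members called numbered 4 with array weights, 3 with weights and the replicate block, 0 to 4 with an array or pair left out, and 0 otherwise. With equal weights the replicate block changed no call of a member, while with array weights it ended that of miR-125a-5p (limma adjusted p = 0.020 without and 0.13 with the block). The tumours lay below all adjacent pieces for 4 or 5 members in the 7 alternatives where this was counted. These were quantile normalization of the deposited values and leaving out single arrays, and the count was chosen after seeing the data. Leaving out an array cannot undo a separation, so those counts could not fall below 4. Of all microRNAs, 22.9% were so separated with all arrays and 31.4% without tumour 1293. For the other alternatives no such share was worked out, so the counts say little on the members. The groups lay apart in 13 to 15 of the 17 contrasts, not the same ones throughout. Quantile normalization of the deposited values ended the separation for miR-99a with miR-125b-5p. It gave separation for miR-100 with let-7a and for miR-99b with miR-99b*. The cause of these shifts was not tested.

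Values near 0 changed sign. miR-125b-2-3p was at -0.022 with centring on the 75th percentile. With array weights, miR-125a-3p was at 0.0025, miR-125b-1-3p at 0.0010, miR-125b-2-3p at -0.037, let-7a-1* at -0.15 and miR-10b at -0.081. With weights and the block, these were 0.026 for miR-125a-3p, -0.052 for miR-125b-2-3p, -0.16 for let-7a-1* and -0.061 for miR-10b. With an array or pair left out, ranges were -0.29 to 0.061 for miR-125a-5p, -0.074 to 0.035 for miR-125a-3p, -0.12 to 0.015 for miR-125b-1-3p, -0.063 to 0.064 for miR-125b-2-3p, -0.19 to 0.19 for let-7a-1*, -0.033 to 0.40 for let-7c-1* and -0.10 to 0.24 for miR-10b. The contrast of miR-99b with miR-125a-5p ran from -0.16 to 0.24 and that of miR-125a-5p with miR-125a-3p from -0.29 to 0.10. The 4 arms at 3′ did not pass the filter on dim microRNAs and had no value there.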
